A study of Mus musculus with 11 samples.

Results

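Protocadherins are the largest group of the cadherin superfamily, transmembrane proteins that bind between cells in the presence of calcium. The genes described here are the protein-coding mouse genes whose GENCODE symbol begins with Pcdh and that held at least 10 counts in at least 5 of the libraries. Of 69 such annotated genes in the count files, 65 met the rule, out of 48709 gene identifiers counted in all. They comprise 11 of 14 genes of the Pcdha cluster, all 22 of the Pcdhb cluster, 20 of 21 of the Pcdhg cluster and all 12 non-clustered protocadherins.

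The clustered genes lie in tandem arrays on mouse chromosome 18, which holds 55 of the members. Each Pcdha and Pcdhg gene has its own promoter and its own variable exon, which is spliced to constant exons shared by the whole cluster, whereas each Pcdhb gene has no shared exon. A neuron transcribes a small, largely random choice of the alternate genes, set by CTCF, cohesin and promoter methylation, and the proteins recognise identical copies on other membranes, which lets the branches of a neuron avoid one another. The C-type genes at the ends of the Pcdha and Pcdhg arrays are transcribed more uniformly, and the non-clustered genes are each under separate control and have roles in axon growth, synapse formation and synapse loss.

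The tissue was hippocampal CA1 of mice aged 3 months, profiled by RNA sequencing. There were 6 libraries from CamkdeltaC transgenic mice, which carry a transgene for a splice form of the calcium/calmodulin-dependent kinase II delta subunit, and 5 from littermate controls. The line is a model of heart failure whose transgene is under a heart muscle promoter, and the comparison bears on the link between heart failure and impaired memory that the series title names. Males and females were both used, and sex, litter and batch are not given for any library.

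Totals ran from 24403918 to 34153726 counts in transgenic libraries, and in controls from 31679533 to 36898689 apart from control 5 with 14263784. Camk2d, the gene of the transgene, averaged 67.8 ± 36.7 counts per 1000000 counts (CPM) in transgenic and 72.0 ± 18.6 CPM in control libraries (SD, n = 6 and 5), a log2 fold change of -0.08 ± 0.29 (SE) with an adjusted p of 0.873 by edgeR's quasi-likelihood test. It therefore does not check the genotype labels in this tissue. Xist, the RNA of the inactive X chromosome, stood at a log2 CPM of 9.19 to 10.1 in transgenic 1, 2 and 3 and control 1, 3 and 4, against -1.30 to 0.64 in the other 5 libraries. Markers of CA1 pyramidal cells summed to 1483 to 1906 CPM in transgenic and 1311 to 1649 CPM in control libraries, and all 8 of them were detected. Markers of dentate granule cells, a neighbouring field, summed to 96.8 to 224 CPM in transgenic and 104 to 278 CPM in control libraries. Log2 fold changes followed the GC content of genes: the slope of a library's log2 CPM, less the gene's mean, per 10 points of GC ran from -0.06 to 0.27 in transgenic and from -0.22 to -0.06 in control libraries.

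What a count stands for differs between the clusters. A read that falls on an exon base shared by several genes appears to have been left uncounted: of 130 protein-coding genes with no exon base of their own, 118 held 0 counts in every library (90.8%), against 15.5% of those with such bases. The constant exons and any exon shared with a read-through or antisense gene are of this kind. Bases belonging to 1 gene alone made up 35.1 to 51.4% of the exon length of Pcdha members and 26.4 to 68.5% of that of Pcdhg members. They made up 36.5 to 100% in Pcdhb and 78.9 to 100% in non-clustered genes. Counts of Pcdha and Pcdhg genes therefore report mostly on the variable exon. Pcdhga10 has no exon base of its own and held 0 counts in all libraries, while Pcdha4 held 0 to 6, Pcdha8 0 to 9 and a second identifier that GENCODE also names Pcdha11 held 0 to 3 counts. The Pcdha11 member is the identifier ENSMUSG00000007440.

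Levels spanned a wide range and are given here as CPM per kilobase of exon that belongs to the gene alone, averaged over all libraries. Pcdh1, a delta-1 protocadherin, was highest at 45.0. It was followed by the C-type genes Pcdhgc5 at 19.6 and Pcdhgc3 at 18.2, then by Pcdh9 at 17.5, Pcdh20 at 12.7 and the C-type Pcdhac2 at 11.2. Most other cluster genes were lower, with medians by cluster of 1.34 for Pcdha, 1.80 for Pcdhb and 3.69 for Pcdhg members, C-type genes included. The alternate gene Pcdhga11 stood at 9.61, above the C-type genes Pcdhgc4 at 4.62 and Pcdhac1 at 1.16. The highest Pcdhb gene was Pcdhb7 at 4.99 and the lowest was Pcdhb1 at 0.20. Pcdh12, known from vascular endothelium, was the lowest member of all at 0.082, and Pcdh15, best known from the tip links of inner ear hair cells, stood at 1.18.

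**Figure D1:**
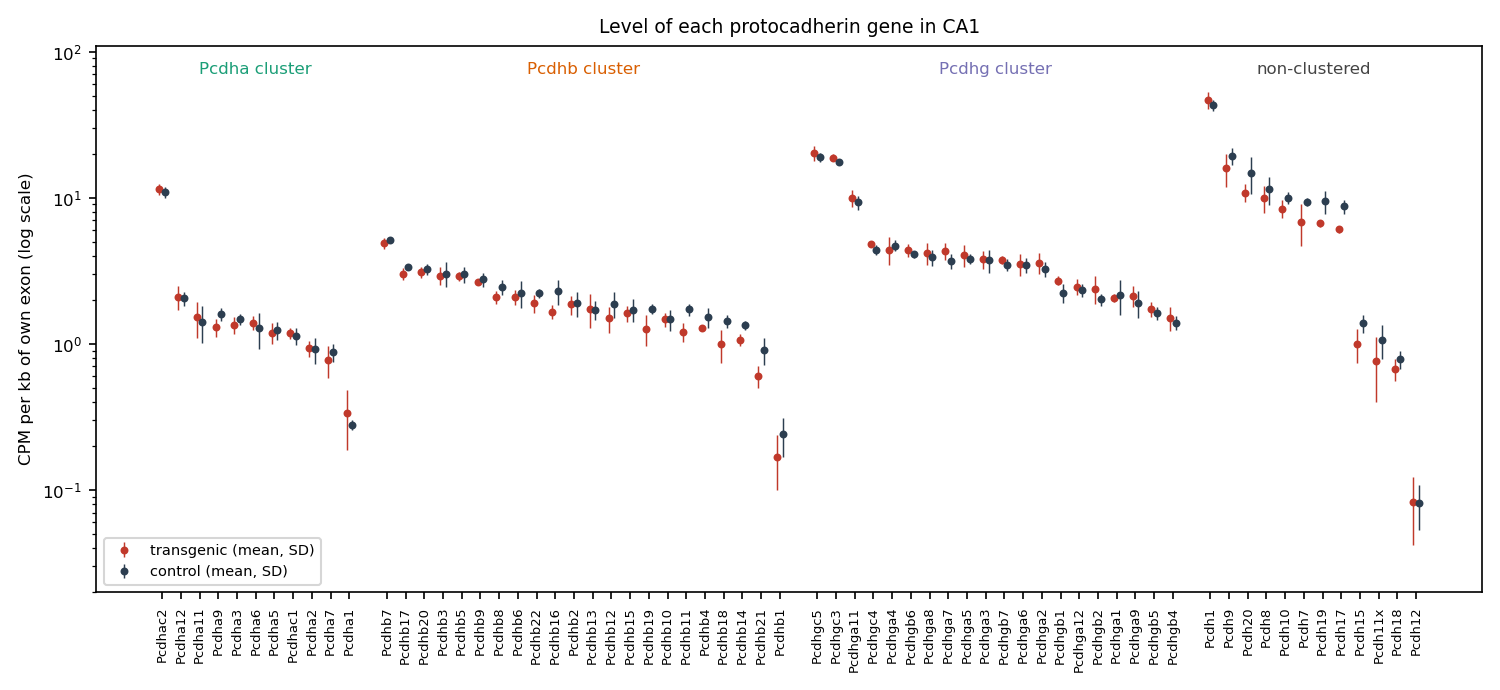
Level of each of the 65 members as CPM per kilobase of own exon on a log scale, mean and SD of the 6 transgenic and the 5 control libraries, ordered within each cluster by the mean. Pcdh1 lies highest at 45.0 and Pcdh12 lowest at 0.082, and in each of Pcdha and Pcdhg a C-type gene leads.

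The C-type genes held similar shares of their cluster in both groups. Pcdhac2, needed for the even spacing of serotonergic axons, took 55.4 ± 2.47% of the summed Pcdha CPM in transgenic and 53.95 ± 1.21% in control libraries (SD, n = 6 and 5). Pcdhac1 took 4.86 ± 0.39% in transgenic and 4.75 ± 0.70% in control libraries. Pcdhgc3, Pcdhgc4 and Pcdhgc5 together took 49.6 ± 1.57% of the summed Pcdhg CPM in transgenic and 49.6 ± 0.97% in control libraries. The ranges overlapped for each of these genes and for the 3 together. These shares are of counts that mostly come from variable exons, not of molecules.

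In transgenic CA1, members called lower at an adjusted p under 0.05 were 6 of 22 Pcdhb and 3 of 12 non-clustered genes. None was called higher, and no Pcdha or Pcdhg member was called in either direction. Over all 17293 genes tested, 10.5% were called lower and 7.41% higher, so the shares of 27.3% of Pcdhb and 25% of non-clustered members lay above the background and that of 13.8% of all members lay near it. The median log2 fold change was -0.19 for Pcdhb, with 21 of 22 below 0, and -0.37 for non-clustered genes, with 11 of 12 below 0. It was 0.04 for Pcdha, with 4 of 11 below 0, and 0.09 for Pcdhg, with 2 of 20 below 0, against 0.0093 for all genes. Because genes are not replicates, these medians are descriptions, and the difference between clusters was not tested. The background of 10.5% spans all GC contents. Of all genes in the GC range of the called Pcdhb members, 34.3% were called lower. With the GC trend of each library removed, 0 of 22 Pcdhb and 2 of 12 non-clustered members were called lower, when 0.821% of all genes were.

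**Figure D2:**
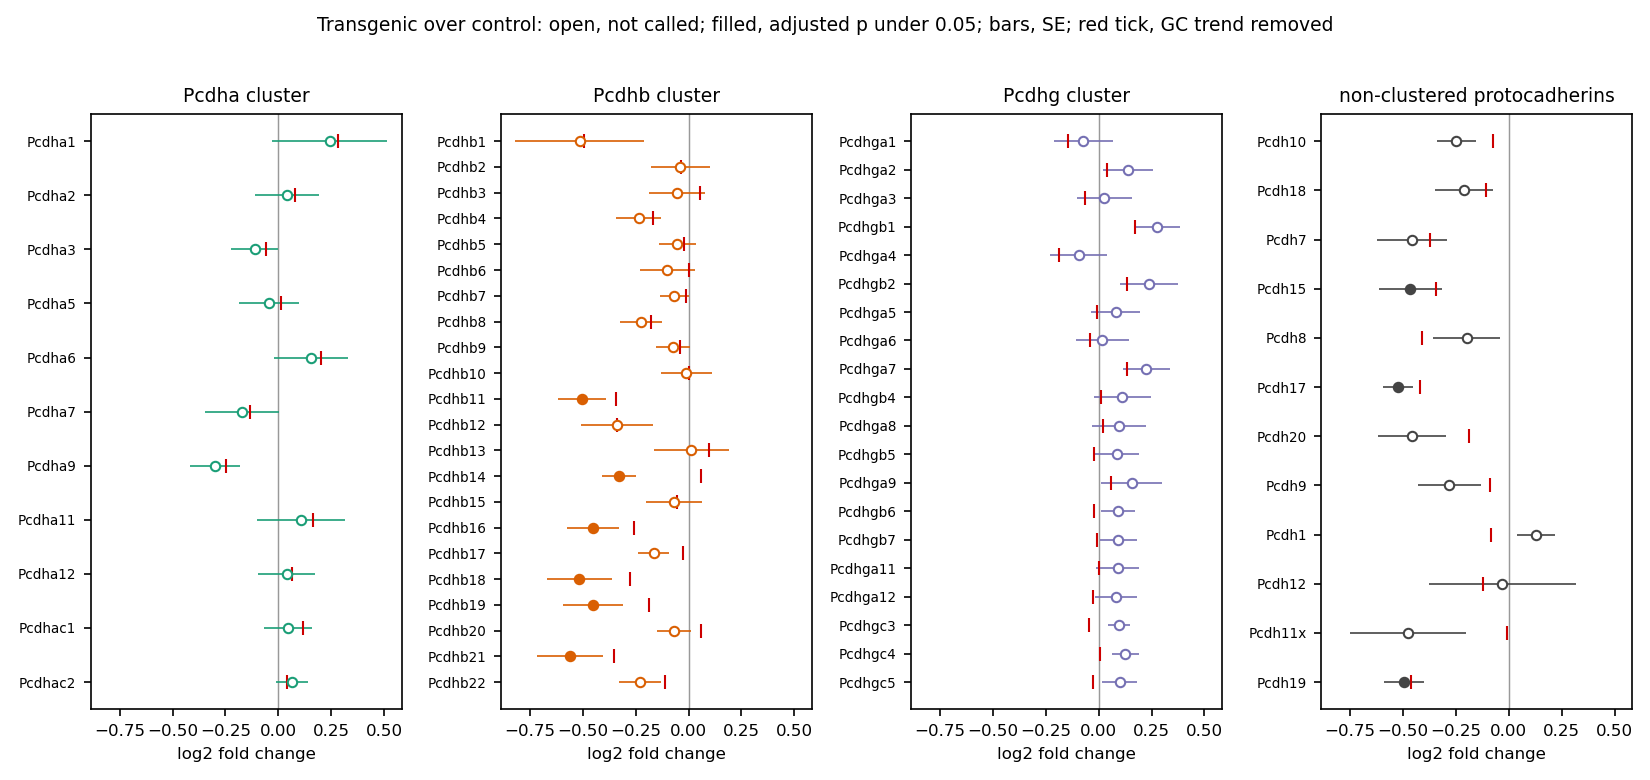
Log2 fold change, transgenic over control, of each of the 65 members with its SE, in 4 panels by cluster; filled points have an adjusted p under 0.05 and red ticks give the fold change after the GC trend of each library was removed. All 9 filled points lie below 0, 6 in the Pcdhb panel and 3 in the non-clustered panel, and the ticks of most Pcdhb and Pcdhg genes lie nearer to 0 than the points.

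Summed over members, non-clustered protocadherins gave 960 to 1041 CPM in transgenic libraries with a median of 989, against 1145, 1063, 1150, 1164 and 1161 CPM in control 1 to 5. Pcdhb members gave 157 to 175 CPM with a median of 166 in transgenic libraries, against 207, 181, 195, 181 and 186 CPM in control 1 to 5. In both sums every transgenic library lay below every control. Of single genes tested 4.73% did so, a share that does not measure how often sums over many genes separate. The sums were not taken with the GC trend removed. Pcdh1 was the largest term of the non-clustered sum and went the other way, with means of 411 CPM in transgenic and 376 CPM in control libraries. The Pcdha sum was 62.3 ± 3.16 CPM in transgenic and 61.3 ± 4.06 CPM in control libraries, and the Pcdhg sum 290.1 ± 20.3 and 271 ± 7.92 CPM (SD, n = 6 and 5), with overlapping ranges. In bulk tissue, fewer cells of a type and less RNA per cell cannot be told apart.

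Pcdh17 and Pcdh19, both delta-2 protocadherins, had the smallest adjusted p of all members. Pcdh17 (ENSMUSG00000035566, mm10 chr14:84443563-84539002, plus strand) recruits the WAVE actin regulator in growing axons and acts at corticostriatal synapses. It measured 73.7 CPM in the lowest, 77.6 in the median and 84.2 CPM in the highest transgenic library, against 114, 93.4, 113, 124 and 121 CPM in control 1 to 5. The groups did not overlap, and control 2 came nearest to the transgenic libraries. Its log2 fold change was -0.52 ± 0.07 (SE, adjusted p = 0.0103, edgeR), 30.4% lower.

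Pcdh19 (ENSMUSG00000051323, mm10 chrX:133582860-133688987, minus strand) binds N-cadherin, and its mutation in humans causes an X-linked epilepsy of girls. It measured 64.9 CPM in the lowest, 70.6 in the median and 73.4 CPM in the highest transgenic library, against 96.8, 77.2, 93.7, 126 and 99.0 CPM in control 1 to 5. The groups again did not overlap, and control 2 again lay nearest while control 4 lay highest. Its log2 fold change was -0.50 ± 0.09 (SE, adjusted p = 0.0117, edgeR), 29.1% lower. Of all genes tested, 4.73% had every transgenic library below every control, and among members only Pcdh17, Pcdh19 and Pcdhb11 did. Pcdh19 is X-linked, and in a fit with Xist as covariate its log2 fold change was -0.47 (adjusted p = 0.00644, edgeR) and that of Pcdh17 was -0.51 (adjusted p = 0.00457).

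Both genes remained called in each of the 24 alternative analyses, including the removal of the GC trend of each library. After that removal Pcdh17 had a log2 fold change of -0.42 and Pcdh19 of -0.46 (adjusted p = 0.0314 for each, edgeR), when 0.821% of all genes were called lower and 1.16% higher. With single libraries left out, the adjusted p of each gene reached at most 0.0374. They were the only members called in the fit with the GC trend removed and no other change, in which 12 of 12 non-clustered genes had a fold change below 0 with a median of -0.16. That correction takes out any difference between groups that follows GC content, whatever its source.

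The promoters of the called Pcdh17 and Pcdh19 are shown beside that of Pcdh20, an uncalled gene on the same chromosome as Pcdh17 with a log2 fold change of -0.46. Each is the 250 bases before the RefSeq start on GRCm38.p6, written 5′ to 3′ on the strand of the gene, and capitals mark a GC box, GGGCGG or its reverse complement.
Pcdh17 (chr14:84443313-84443562, plus strand): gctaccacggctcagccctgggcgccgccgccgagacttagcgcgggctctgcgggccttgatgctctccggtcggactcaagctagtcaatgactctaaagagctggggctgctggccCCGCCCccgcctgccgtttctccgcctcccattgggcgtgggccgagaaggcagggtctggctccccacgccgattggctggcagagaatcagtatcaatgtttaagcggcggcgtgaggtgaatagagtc
Pcdh19 (chrX:133688994-133689243, minus strand): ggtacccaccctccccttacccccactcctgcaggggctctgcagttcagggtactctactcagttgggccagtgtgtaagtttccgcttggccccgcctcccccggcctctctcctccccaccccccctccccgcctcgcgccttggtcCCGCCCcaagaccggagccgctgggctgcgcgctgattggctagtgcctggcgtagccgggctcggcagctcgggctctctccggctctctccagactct
Pcdh20 (chr14:88471397-88471646, minus strand): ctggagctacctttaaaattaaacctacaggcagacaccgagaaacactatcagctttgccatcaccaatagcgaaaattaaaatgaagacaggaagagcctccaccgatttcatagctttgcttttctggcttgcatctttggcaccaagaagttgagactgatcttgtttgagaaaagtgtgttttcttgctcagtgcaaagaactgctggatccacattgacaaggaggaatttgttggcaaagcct

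The GC content of these windows was 64.8% for Pcdh17, 69.2% for Pcdh19 and 42.4% for Pcdh20, against a median of 52.4% over all 32851 promoters of the table. The windows of Pcdh17 and Pcdh19 held 1 GC box each and that of Pcdh20 none. The presence of the box did not follow the calls over the other members. The called Pcdh15 held none, and the uncalled Pcdh10 and Pcdh18 held 1 each. The RefSeq start of Pcdh15 lies 722525 bases downstream of its GENCODE start, and only the window before the RefSeq start was searched. Both strands were searched for the GC box, the CRE TGACGTCA, the TATA box TATAAA and the E-box CACGTG; in these 3 windows only the GC box was found. Over all promoters the GC box was in 32.7%, the TATA box in 12.4%, the E-box in 6.02% and the CRE in 1.55%. Of the 9 members with a promoter in the table, all non-clustered, 4 held a GC box, 2 a TATA box and none the other motifs. These matches describe letters and are not binding sites.

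Pcdh15 (ENSMUSG00000052613, mm10 chr10:73099342-74649737, plus strand) was the third non-clustered member called, with a log2 fold change of -0.47 ± 0.15 (SE, adjusted p = 0.0452, edgeR). It measured 18.2 CPM in the lowest, 21.8 in the median and 35.2 CPM in the highest transgenic library, against 27.9, 35.3, 30.9, 31.0 and 39.9 CPM in control 1 to 5. The groups overlapped through transgenic 6 alone, which lay among the controls. Without transgenic 6 the adjusted p was 0.0017, and in every other fit that left out 1 library it was above the threshold, at most 0.111. After removal of the GC trend the log2 fold change was -0.35 (adjusted p = 0.190).

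The other 9 non-clustered genes did not pass the test. Pcdh7, which binds protein phosphatase 1, averaged 57.1 ± 18.1 CPM in transgenic and 78.6 ± 4.66 CPM in control libraries (SD, n = 6 and 5; adjusted p = 0.0666, edgeR), and transgenic 6 with 91.1 CPM was the highest library of all. Pcdh20 averaged 59.6 ± 8.13 CPM in transgenic and 81.5 ± 23.6 CPM in control libraries (adjusted p = 0.0629, edgeR). Its control values were 75.4, 59.8, 108, 105 and 59.7 CPM in control 1 to 5, and the dentate granule markers summed highest in the same control 3 and 4, at 278 and 246 CPM. Their part in this spread was not tested.

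Pcdh10 drives the removal of excitatory synapses downstream of the factor MEF2. It averaged 132 ± 18.6 CPM in transgenic and 157 ± 14.9 CPM in control libraries, a log2 fold change of -0.25 (adjusted p = 0.0787, edgeR). Its sign turned under some GC corrections, to 0.09 when the GC content of own exon bases was used. Pcdh9 had a log2 fold change of -0.28 (adjusted p = 0.197), Pcdh18 of -0.21 (adjusted p = 0.292) and the X-linked Pcdh11x of -0.48 with an SE of 0.27 (adjusted p = 0.233). Transgenic 6 was the highest transgenic library for Pcdh7, Pcdh9, Pcdh10, Pcdh11x, Pcdh15 and Pcdh18. Its slope on GC content was also the lowest of the transgenic libraries and lay next to that of control 2, both at -0.06. The slopes fell in order from transgenic 1 at 0.27 to transgenic 6. Pcdh9 and Pcdh11x rose at every step of that order, and the other genes just named did not. Transgenic 1, 2 and 3, of high Xist, had the highest transgenic slopes, whereas the highest control slope was that of control 2, of low Xist.

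Without transgenic 6, 7 non-clustered members were called lower, when 15.1% of all genes were. The added ones were Pcdh7, Pcdh9, Pcdh10 and Pcdh11x, named because they were called there. Pcdh8, an activity-induced protocadherin also known as arcadlin that takes N-cadherin off synaptic membranes, had a log2 fold change of -0.20 (adjusted p = 0.401) and of -0.41 after removal of the GC trend (adjusted p = 0.186). Pcdh1 had 411 ± 53.6 CPM in transgenic and 376 ± 33.6 CPM in control libraries, a log2 fold change of 0.13 (adjusted p = 0.339, edgeR) that became -0.09 after removal of the GC trend. Pcdh12, with 0.498 CPM in transgenic and 0.490 CPM in control libraries, had a log2 fold change of -0.03 with an SE of 0.35 (adjusted p = 0.962).

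**Figure D3:**
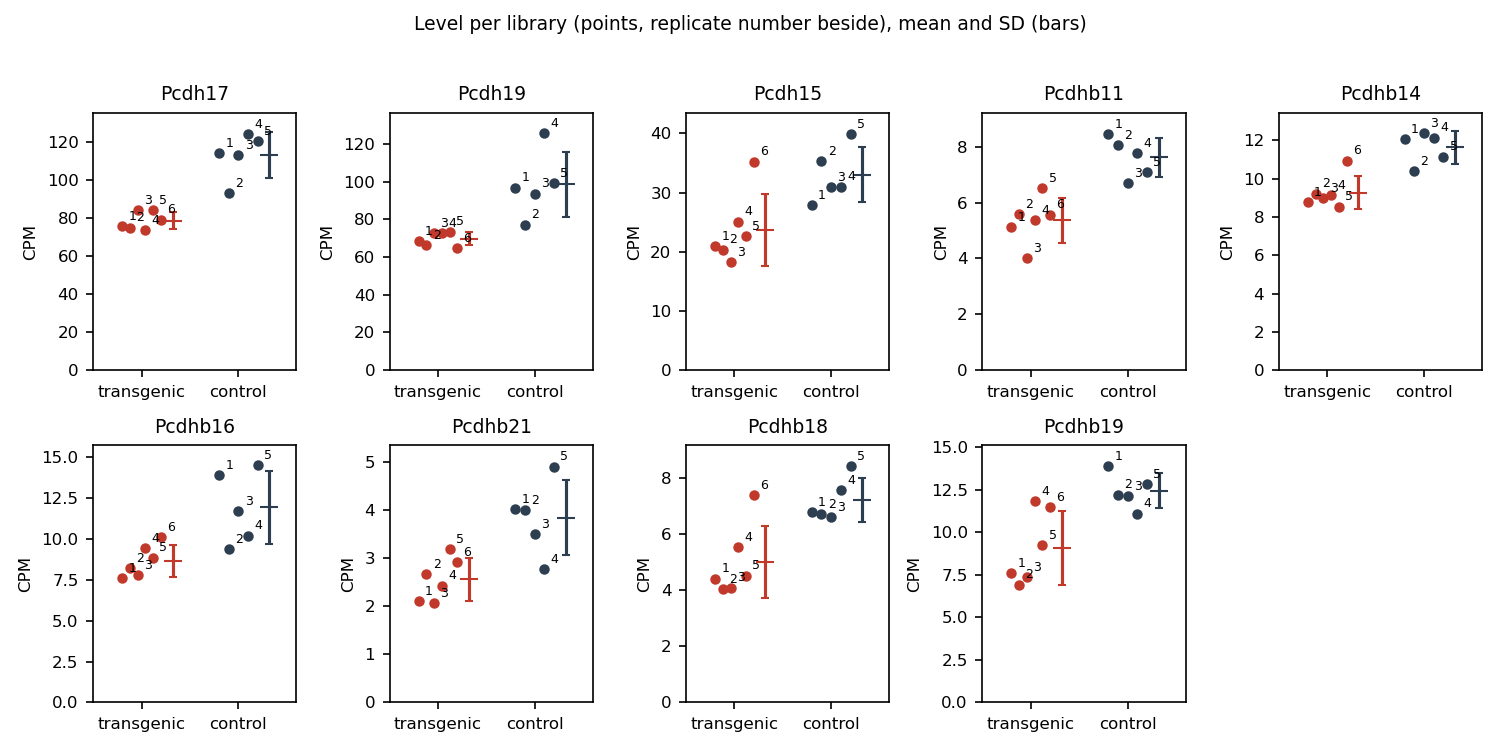
CPM of the 9 members called lower, 1 panel each, with a point for every library (its replicate number beside it) and the mean and SD at the right of each group; transgenic on the left, control on the right, axes from 0. The groups are apart for Pcdh17, Pcdh19 and Pcdhb11, and in the panels of Pcdh15, Pcdhb14 and Pcdhb18 transgenic 6 is the highest transgenic point.

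The 6 Pcdhb genes called lower were Pcdhb11, Pcdhb14, Pcdhb16, Pcdhb18, Pcdhb19 and Pcdhb21. They fell to levels 20.4 to 32.3% below those of controls. Their share of the summed Pcdhb CPM was 24.0 ± 2.33% in transgenic and 28.8 ± 1.67% in control libraries (SD, n = 6 and 5). The genes were picked by their calls in the same libraries, so a lower level and share in transgenic libraries follow from the choice. The shares overlapped, at 21.8 to 27.73% in transgenic and 27.25 to 31.63% in control libraries. Each Pcdhb gene encodes a recognition protein built on the same plan. Counts behind these genes were modest, 50 to 132 for Pcdhb21 and 159 to 456 for Pcdhb14 per library.

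Pcdhb11 measured 4.01 CPM in the lowest, 5.47 in the median and 6.51 CPM in the highest transgenic library, against 8.46, 8.05, 6.71, 7.77 and 7.08 CPM in control 1 to 5. The groups did not overlap, by a narrow margin between transgenic 5 and control 3. Its log2 fold change was -0.51 ± 0.11 (SE, adjusted p = 0.0152, edgeR), and it was called in all 11 fits that left out 1 library.

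Pcdhb14 measured 8.54 CPM in the lowest, 9.05 in the median and 10.9 CPM in the highest transgenic library, against 12.1, 10.4, 12.4, 12.2 and 11.2 CPM in control 1 to 5. Only transgenic 6 and control 2 crossed. Its log2 fold change was -0.33 ± 0.08 (SE, adjusted p = 0.0200, edgeR), and 9 of the 11 fits that left out 1 library called it.

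Pcdhb16 measured 7.61 CPM in the lowest, 8.54 in the median and 10.1 CPM in the highest transgenic library, against 13.9, 9.39, 11.7, 10.2 and 14.5 CPM in control 1 to 5 (log2 fold change -0.45 ± 0.12, SE, adjusted p = 0.0259, edgeR). Control 2 lay within the transgenic range, and 5 of the 11 fits called the gene. Pcdhb21 measured 2.07 CPM in the lowest, 2.55 in the median and 3.19 CPM in the highest transgenic library, against 4.03, 4.01, 3.50, 2.77 and 4.91 CPM in control 1 to 5 (log2 fold change -0.56 ± 0.16, adjusted p = 0.0284). Control 4 lay within the transgenic range, and again 5 of the 11 fits called the gene.

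Pcdhb18 measured 4.04 CPM in the lowest, 4.47 in the median and 7.40 CPM in the highest transgenic library, against 6.78, 6.71, 6.60, 7.58 and 8.41 CPM in control 1 to 5 (log2 fold change -0.52 ± 0.15, SE, adjusted p = 0.0353, edgeR). Transgenic 6 lay among the controls and the other transgenic libraries below them all, and 3 of the 11 fits called the gene. Pcdhb19 measured 6.92 CPM in the lowest, 8.42 in the median and 11.8 CPM in the highest transgenic library, against 13.9, 12.2, 12.1, 11.1 and 12.8 CPM in control 1 to 5 (log2 fold change -0.45 ± 0.14, adjusted p = 0.0425). Control 4 lay below transgenic 4 and 6, and 2 of the 11 fits called the gene. The number of Pcdhb genes called with 1 library left out was between 2 and 7.

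All 6 called genes lie in the stretch from Pcdhb11 to Pcdhb22, and none of the 10 genes from Pcdhb1 to Pcdhb10 was called. The same 6 are also the Pcdhb genes of lowest GC content: 6 of 6 with a longest transcript under 44% GC were called and 0 of 16 at or above it. The called genes had a GC content of 39.1 to 43.8% and exons of 4419 to 8695 bases. The uncalled genes had a GC content of 44.4 to 49.0% and exons of 2588 to 6609 bases. The uncalled Pcdhb12, Pcdhb13, Pcdhb15, Pcdhb17, Pcdhb20 and Pcdhb22 lie in the same stretch as the called genes. Exon lengths of called and uncalled genes overlapped, and their GC contents did not. Of all genes tested within the GC range of the called Pcdhb members, 34.3% were called lower with a median log2 fold change of -0.25, and in the range of the uncalled ones 7.94% were, with a median of -0.07.

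**Figure D4:**
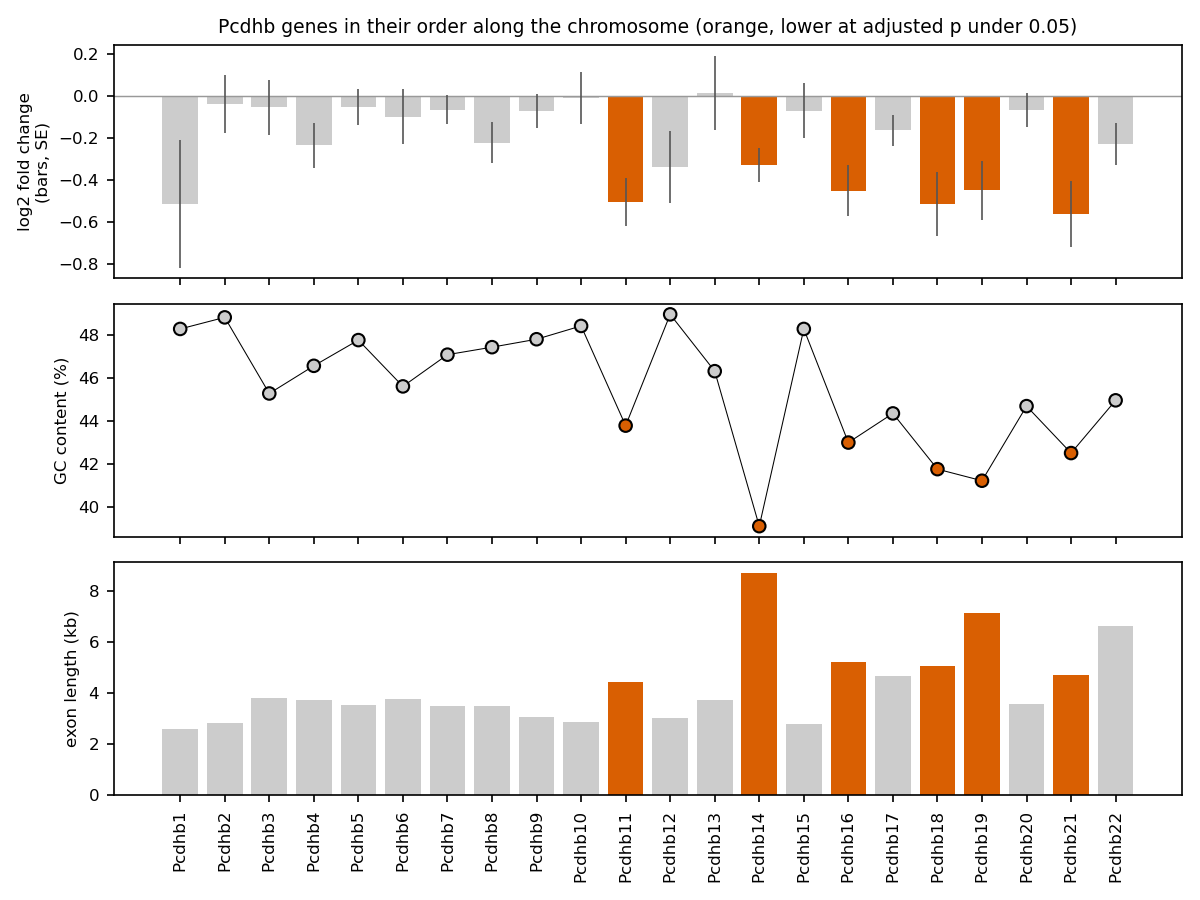
The 22 Pcdhb genes in their order along the chromosome, with the log2 fold change and its SE (top), the GC content of the longest transcript in percent (middle) and the exon length in kilobases (bottom); orange marks the 6 genes called lower. The orange genes all lie from Pcdhb11 onward and have the lowest GC contents, 39.1 to 43.8%.

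After the GC trend of each library was removed, 0 of 22 Pcdhb genes were called by edgeR's quasi-likelihood test. In that fit only 0.821% of all genes were called lower and 1.16% higher, so 0 of 22 lies near the background. An unadjusted p under 0.05 was held by 4 of the Pcdhb genes and by 18.2% of all genes. The median log2 fold change of the cluster was then -0.05, with 16 of 22 below 0. Pcdhb11 had a log2 fold change of -0.34 (adjusted p = 0.116), Pcdhb21 of -0.35 (adjusted p = 0.230), Pcdhb18 of -0.28 (adjusted p = 0.250), Pcdhb16 of -0.26 (adjusted p = 0.235) and Pcdhb19 of -0.19 (adjusted p = 0.429). Pcdhb14, the gene of lowest GC content, turned to 0.06 (adjusted p = 0.763). The slope on GC content was lower in every control than in every transgenic library, so GC content and genotype cannot be told apart for these genes. The nearest slopes almost met, at -0.0607 in transgenic 6 and -0.0617 in control 2.

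**Figure D5:**
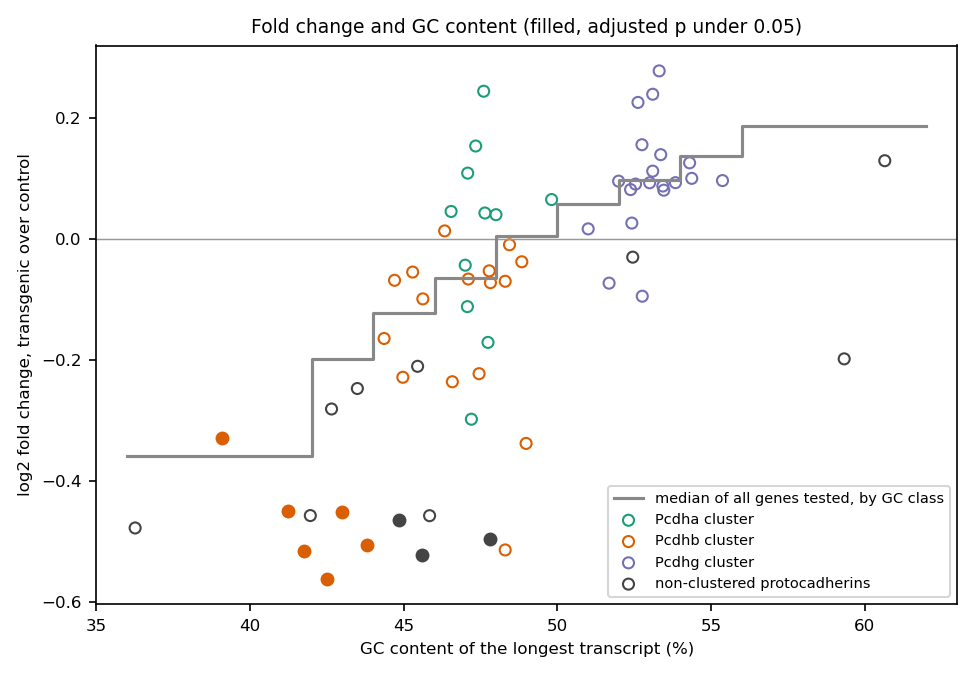
Log2 fold change, transgenic over control, of the 65 members against the GC content of the longest transcript in percent; filled points have an adjusted p under 0.05, and the grey steps give the median of all genes tested in each class of GC content. The steps climb from -0.36 below 42% to 0.19 above 56%, Pcdhg points lie near them, and Pcdh17 and Pcdh19 lie well below them.

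The members followed the relation of all genes to GC content unevenly. Below 42% GC the median log2 fold change was -0.36 over 2222 genes and -0.46 over 5 members. From 42 to 44% it was -0.20 over 1426 genes and -0.45 over 5 members. From 46 to 48%, where Pcdh19 and most Pcdha genes lie, it was -0.07 over 1862 genes and -0.06 over 16 members, and from 52 to 54%, where most Pcdhg genes lie, it was 0.10 over 1783 genes and 0.09 over 15 members. Spearman's rho between fold change and GC content was 0.51 across the 22 Pcdhb, 0.45 across the 12 non-clustered, 0.40 across the 20 Pcdhg and 0.09 across the 11 Pcdha genes, against 0.68 across all genes. These points share the same 11 libraries and are not independent.

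Neither the Pcdha nor the Pcdhg cluster held a called gene under edgeR or DESeq2, and limma voom with sample weights called 1 Pcdha gene lower and 1 Pcdhg gene higher. Of all genes DESeq2 called 14.9% lower and 12.1% higher, and limma voom 15.1% lower and 12.5% higher. At an unadjusted p under 0.05 edgeR gave 1 gene in each, of 11 and of 20, when 34.7% of all genes had such a p. These were Pcdha9 with a log2 fold change of -0.30 (adjusted p = 0.0910) and Pcdhgb1 with 0.28 (adjusted p = 0.0810), both named after their values were seen. Pcdha fold changes ran from -0.30 to 0.24 and Pcdhg ones from -0.10 to 0.28.

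None of the C-type genes passed the test in the fit of all libraries without covariates. Pcdhac2 averaged 34.6 ± 2.99 CPM in transgenic and 33.1 ± 2.85 CPM in control libraries, a log2 fold change of 0.06 ± 0.07 (SE, adjusted p = 0.565, edgeR). Pcdhac1 averaged 3.03 ± 0.27 CPM in transgenic and 2.90 ± 0.39 CPM in control libraries. Pcdhgc5 averaged 93.2 ± 11.5 CPM in transgenic and 86.9 ± 5.53 CPM in control libraries (log2 fold change 0.10 ± 0.08, SE, adjusted p = 0.420). Pcdhgc3, which binds Axin1 and promotes dendrite branching, averaged 34.2 ± 1.92 CPM in transgenic and 31.97 ± 1.19 CPM in control libraries (0.10 ± 0.05, adjusted p = 0.211). Pcdhgc4, needed for the survival of cortical interneurons, averaged 16.7 ± 0.55 CPM in transgenic and 15.3 ± 1.18 CPM in control libraries (0.13 ± 0.06, adjusted p = 0.180). It was called higher only without control 2, and the signs of Pcdhgc3 and Pcdhgc5 turned after removal of the GC trend.

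The alternate genes of highest level did not pass the test either. Pcdha12 averaged 4.08 ± 0.78 CPM in transgenic and 3.98 ± 0.42 CPM in control libraries, and the Pcdha11 member 3.79 ± 1.04 CPM in transgenic and 3.51 ± 0.99 CPM in control libraries. Pcdhga11 averaged 12.4 ± 1.66 CPM in transgenic and 11.7 ± 1.27 CPM in control libraries. Of the highest Pcdhb genes, Pcdhb7 averaged 17.1 ± 1.46 CPM in transgenic and 17.9 ± 0.74 CPM in control libraries and Pcdhb20 11.04 ± 0.97 CPM in transgenic and 11.6 ± 0.99 CPM in control libraries. Pcdhb17 averaged 14.1 ± 1.39 CPM in transgenic and 15.8 ± 0.57 CPM in control libraries, a log2 fold change of -0.17 (adjusted p = 0.136, edgeR).

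The authors' deposited table of genes lower in transgenic mice lists 12 members, of 2014 genes in all, and their table of 1780 higher genes lists none. The 12 are the 9 genes above together with Pcdh7, Pcdh10 and Pcdh20. For Pcdh17 the authors' deposited table gives a log2 fold change of -0.53 with an adjusted p of 5.4e-08, and for Pcdh19 -0.50 with 4.16e-05.

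Genes that control the choice of clustered promoters were lower in part. The list held 22 such genes, among them CTCF, cohesin and its loaders and DNA methyltransferases. Of the 22 genes, 10 were called lower and 0 higher, with a median log2 fold change of -0.16. Ctcf was called with -0.15 (adjusted p = 0.046, edgeR) and the cohesin gene Stag2 with -0.45 (adjusted p = 0.0385). Not called were the cohesin genes Rad21 (-0.14), Smc1a (0.02), Smc3 (-0.10) and Stag1 (-0.22). Dnmt1 (0.03), Dnmt3a (-0.04) and Dnmt3b (0.23) were not called either. The genes from Ctcf to Dnmt3b were named after their values were seen. Over all genes tested, 10.5% were called lower and 7.41% higher. Nipbl, the cohesin loader, fell by 0.40 on the log2 scale (adjusted p = 0.0113, edgeR), and Wapl, which releases cohesin from DNA, also fell by 0.40 (adjusted p = 0.0123). The cohesin cofactors Pds5a and Pds5b fell by 0.30 (adjusted p = 0.0103) and by 0.34 (adjusted p = 0.0119). The GC content of Nipbl, Wapl, Pds5a and Pds5b was 40.8 to 43.2%. Of all genes tested, 43.6% were called lower below 42% GC and 28.05% from 42 to 44% GC. The part of these regulators in the values of the protocadherins was not tested. After removal of the GC trend 1 gene of this list was called, Yy1 with -0.19 (adjusted p = 0.0404), named after its value was seen, and the median was -0.08. In that fit 0.821% of all genes were called lower and 1.16% higher.

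Of 30 genes whose proteins bind or act with protocadherins, 2 were called higher and 5 lower, with a median of -0.06. Over all genes tested, 7.41% were called higher and 10.5% lower. In this list Nlgn1, a postsynaptic adhesion protein, fell by 0.36 (adjusted p = 0.0111, edgeR), and Adam10, a protease that cleaves cadherins, by 0.38 (adjusted p = 0.0152). The WAVE complex genes Abi2 and Nckap1 fell by 0.37 (adjusted p = 0.0114) and 0.23 (adjusted p = 0.0262). The genes called higher, named after their values were seen, were Axin1 with 0.18 (adjusted p = 0.0411) and Ppp1ca with 0.20 (adjusted p = 0.0339). With the GC trend removed, none of the 30 was called, when 0.821% of all genes were called lower and 1.16% higher.

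Of 29 other cadherin genes tested, 1 was called in each direction, when 7.41% of all genes were called higher and 10.5% lower. The called cadherins were Celsr1, a planar polarity cadherin, with a log2 fold change of 0.28 (adjusted p = 0.0417, edgeR), and the classical cadherin Cdh11 with -0.28 (adjusted p = 0.0157). The median of that list was 0.02, set beside -0.37 for the non-clustered protocadherins. With the GC trend removed the medians were -0.03 and -0.16, and neither Celsr1 (adjusted p = 0.473) nor Cdh11 (adjusted p = 0.119) was called. Cdh10, named after its values were seen, was then called higher with 0.75 (adjusted p = 0.0314), against 0.09 (adjusted p = 0.623) without the removal. Of all genes 1.16% were called higher in that fit.

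Marker genes of the cell types that a dissected CA1 could hold differed in part between the groups. The 8 dentate granule markers had a median log2 fold change of -0.43, the 9 microglial markers of 0.25, the 8 CA1 pyramidal markers of 0.23 and the 8 oligodendrocyte markers of 0.24. None was called of the 8 CA1 pyramidal, 6 CA3 and CA2, 8 dentate granule, 8 oligodendrocyte and 4 choroid plexus and ependyma markers tested. Of 9 microglial markers 4 were called higher, set beside 7.41% of all genes, and these 9 summed to 352 to 457 CPM in transgenic and 320 to 386 CPM in control libraries. Of 10 endothelial and mural markers 2 were called lower, set beside 10.5% of all genes. They summed to 273 to 328 CPM in transgenic and 284 to 356 CPM in control libraries, all 10 together. Of 10 interneuron and of 9 astrocyte markers 1 was called in each direction, and of 6 markers of oligodendrocyte precursors 1 was called higher. With the GC trend removed no marker was called in any of these lists, when 0.821% of all genes were called lower and 1.16% higher. The medians were then -0.26 for dentate granule and 0.10 for microglial markers. The part of these cell types in the values of the protocadherins was not tested.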

How the data were processed

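Raw counts per gene, as the authors deposited them, were used for 11 libraries of polyadenylated RNA (unstranded TruSeq kit, single-end 50-base reads, per the labels' protocols). The build is mm10, and the submitters' processing notes list STAR 2.5.2b, Subread 1.5.1, featureCounts and FastQC 0.11.5 without settings. The authors' deposited tables of their own calls hold a log2 fold change, an adjusted p-value and a signal per library, which is the count divided by 1 factor for that library. Names, exons and GC content came from GENCODE vM21 and promoters from RefSeq.

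A quasi-likelihood F test in edgeR 4.0.16 (R 4.3.3, filterByExpr, TMM scaling, no covariate) was fitted over 17293 genes, and genes with a Benjamini-Hochberg adjusted p under 0.05 were called. Each SE was computed from the fold change and its F value. CPM are counts per 1000000 of the TMM-scaled library size. The labels do not say whether libraries are separate animals; p-values measure only the spread between these libraries, which could be technical. No 2 libraries of a group agreed within sampling noise (chi-square over degrees of freedom 6.75 to 53.8). The GC trend was removed with a lowess curve (span 0.3) of log2 CPM (prior count 2) on GC content, entered as an offset. Other alternatives used DESeq2 1.42.0, limma 3.58.1, sva 3.50.0, other scalings and filters, a replicate block, Xist and 11 fits without 1 library.

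The members and gene lists were chosen with earlier results of these data known. The text names every non-clustered member, the called and the C-type members of each cluster, the 3 of highest level in each cluster, and up to 4 called genes of each pathway list by smallest p. Genes named beyond that are marked as named after their values were seen. The test was tried on simulated counts for this comparison over 17293 genes. It recovered 82 of 100 genes changed by 1 on the log2 scale and 63 of 100 changed by 0.5, with 12 false calls. The simulated counts held no GC trend, whereas in the data every control had a lower slope on GC content than every transgenic library. The 12 false calls therefore do not measure the error rate in these data.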

Additional observations from a re-analysis of the deposited data

Results flagged for a closer look

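In 5 of 80 groups of values tested, 1 library stood apart from the rest of its group, where chance gives about 1 in 20. Pcdh1 measured 435 CPM in control 1, against 352 to 372 CPM in the other controls. Pcdhb14 measured 10.9 CPM in transgenic 6, against 8.54 to 9.22 CPM in the other transgenic libraries. Wapl measured 59.5 CPM in control 2, against 70.7 to 73.4 CPM in the other controls. Adam10 measured 126 CPM in control 4, against at most 114 CPM in the other controls. Cdh11 measured 98.0 CPM in control 2, against 108 to 111 CPM in the other controls.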

How the results depend on the processing

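Pcdh17 and Pcdh19 were called lower in all 24 alternatives, and the other 7 called members were not. Removing the GC trend of each library left 0 Pcdhb genes called, also with the GC content of own exon bases, with a length trend as well and with a replicate block. The GC trend removed, 200 genes of all were called higher and 142 lower, with own exon bases 119 and 83, with a length trend 200 and 94, and with a replicate block 431 and 315. The last of these fits called 4 non-clustered genes lower, Pcdh7, Pcdh15, Pcdh17 and Pcdh19, with 1.82% of all genes called lower. With a replicate block, transgenic 6 does not inform the comparison of the groups. Without a filter 662 genes were called higher, and limma voom called 2164. Of non-clustered genes, DESeq2 called 5 lower, limma voom 6, a fit with Xist as covariate 7 and one with 1 surrogate variable 8, when 14.9%, 15.1%, 13.0% and 14.0% of all genes were called lower in these fits. Limma voom called 1 Pcdha gene lower and 1 Pcdhg gene higher. The cause of these differences was not tested.

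Replicate numbers are shared between the groups, but same-numbered libraries deviated with correlations of -0.185 to 0.197 and 1 of 5 transgenic libraries correlated best with its own number, so the numbers pair nothing. With the replicate block, 2053 genes were called higher and 2541 lower, among them 7 Pcdhb, 7 non-clustered and 1 Pcdha gene lower and 1 Pcdhg and 1 non-clustered gene higher. Number 6 was held by transgenic 6 alone, so the block takes that library out of the comparison of the groups. The fit without transgenic 6 also called 7 Pcdhb, 7 non-clustered and 1 Pcdha gene lower.

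With 1 library left out, calls ran from 361 to 2132 genes higher and 794 to 2580 lower, from 2 to 7 Pcdhb and 2 to 7 non-clustered genes lower, from 0 to 1 Pcdha gene lower and from 0 to 2 Pcdhg genes higher, with 0 in the other directions. Over all genes the most calls came without transgenic 6 and the fewest without control 4. Log2 fold changes then ran from -0.28 to 0.20 for Pcdh12, -0.056 to 0.11 for Pcdha12, -0.048 to 0.26 for Pcdha11 (ENSMUSG00000007440), -0.019 to 0.085 for Pcdhac1 and -0.38 to 0.042 for Camk2d.

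The log2 fold change changed sign as follows, none of them past the threshold afterwards. With the GC trend removed it was -0.086 for Pcdh1, 0.061 for Pcdhb14, 0.060 for Pcdhb20, -0.029 for Pcdhgc5, -0.044 for Pcdhgc3, -0.00059 for Pcdhga11, 0.054 for Camk2d and 0.039 for Nlgn1. With the GC content of own exon bases it was 0.090 for Pcdh10, -0.076 for Pcdh1, -0.11 for Pcdhac2, -0.087 for Pcdha12, 0.062 for Pcdhb14, 0.044 for Pcdhb20, -0.040 for Pcdhgc5, -0.013 for Pcdhga11, -0.033 for Pcdhac1, 0.22 for Camk2d, 0.051 for Pds5a and 0.14 for Nlgn1. With GC and length trends removed it was 0.0045 for Pcdh10, -0.056 for Pcdh1, 0.050 for Pcdh11x, 0.089 for Pcdhb14, 0.046 for Pcdhb20, -0.0094 for Pcdhgc5, -0.044 for Pcdhgc3, -0.0041 for Pcdhga11, 0.17 for Camk2d and 0.10 for Nlgn1. With the replicate block and the GC trend removed it was -0.042 for Pcdh1, 0.098 for Pcdh12, 0.075 for Pcdhb14, 0.0099 for Pcdhb7, 0.045 for Pcdhb20, -0.048 for Pcdhgc3, -0.0085 for Pcdhga11, -0.026 for Pcdhgc4 and 0.066 for Nlgn1. For Pcdh12 it was also 0.19 with limma voom, 0.20 with the replicate block, 0.057 with Xist and 0.025 with the surrogate variable. Depth limits the lowest members, which held as few as 6 counts in a library.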

Other observations

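Cdh10, a classical type II cadherin, differed little between the groups as counted, with 41.1 ± 6.24 CPM in transgenic and 38.7 ± 4.997 CPM in control libraries (SD, n = 6 and 5; log2 fold change 0.09, adjusted p = 0.623, edgeR). After removal of the GC trend it was called higher with a log2 fold change of 0.75 (adjusted p = 0.0314). Its GC content of 33.8% is below that of every protocadherin. It was singled out after its values were seen. Choroid plexus and ependyma markers summed to 55.7 CPM in control 3, against 12.5 to 30.1 CPM in the other controls and 15.6 to 24.8 CPM in transgenic libraries.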
